A study of Mus musculus with 6 samples.

Results

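The genes described here are 10 members of the transforming growth factor beta (TGF-beta) pathway, found by symbol among the 23235 rows of the authors' deposited table. They are the 3 ligands Tgfb1, Tgfb2 and Tgfb3, the receptors Tgfbr1 and Tgfbr2, the docking receptor gene Lrrc32 (which encodes GARP), the signal transducers and inhibitors Smad3, Smad6 and Smad7, and the TGF-beta-induced matrix gene Tgfbi. RNA was sequenced from primary macrophages grown from mouse bone marrow in medium conditioned by L-929 fibroblasts, and all mice were homozygous for GRdim, a glucocorticoid receptor mutant with impaired dimerization. Cells of the LPS+Dex group received 1 µM dexamethasone (Dex, a synthetic glucocorticoid) overnight and then lipopolysaccharide (LPS, a bacterial cell wall component) for 6 h, and cells of the LPS group received LPS for 6 h without Dex, with 3 samples in each group. Neither wild-type nor unstimulated cells were analysed here, and every value is from LPS-activated cells that carry the mutant receptor. The age and sex of the mice are not given in the labels, and they do not say whether separate animals gave the 3 samples of each group. The error in the deposited test may therefore be technical.

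TGF-beta is secreted in a latent form, in which the propeptide still encloses the mature cytokine. GARP and its relative LRRC33 hold this latent complex at the cell surface, and integrins, thrombospondin and proteases can release the cytokine from it. The free cytokine binds the type II receptor Tgfbr2, which activates the type I receptor Tgfbr1, and this phosphorylates SMAD2 and SMAD3, while SMAD6 and SMAD7 inhibit the signal. In macrophages TGF-beta is known for restraining inflammatory activation.

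The table holds 1 FPKM value (a fragment count divided by transcript length and by library total) per gene and group and no value per sample, so the spread between replicates cannot be shown and no further test was run. A gene is written here as called, risen or fallen where the authors' q was under 0.05. The standard error (SE) of a log2 fold change is the one implied by the deposited test statistic. Sequencing depth is unknown. Of the macrophage markers, 7 had a test, and of these 3 were called higher (Csf1r, Itgam and Cd68), 1 lower (Emr1) and 3 were not called. Beside these, 17.7% of all tested genes were called higher and 25.2% lower. Csf1r stood at 168 FPKM in LPS+Dex and 142 FPKM in LPS, and Emr1 at 388 FPKM in LPS+Dex and 458 FPKM in LPS. Removing the level trend means subtracting the running median fold change of genes of like expression level. With the level trend removed, the call of Emr1 was lost (q = 0.729) and Cd14 was called higher (log2 0.35, q = 0.000191). Csf1r, Itgam and Cd68 stayed higher. Lyz2 is marked HIDATA, a status for loci with too many fragments to quantify, so its listed 0 in both groups is not a measured level. The receptor mutation itself cannot be checked from expression levels.

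The promoter windows of 7 of the 10 members were found in RefSeq (GRCm38.p6), each with 250 bases before and 50 after the start site. Lrrc32, Tgfb3 and Smad7 had no entry. The sequences below are those of the abundant ligand gene Tgfb1 and the scarce ligand gene Tgfb2, which show the widest gap in level among the members, and of Tgfbr1, Tgfbi and Smad6, the 3 members that rose. They are Tgfb1 at chr7:25686752-25687051 (plus strand), Tgfb2 at chr1:186705940-186706239 (minus strand), Tgfbr1 at chr4:47352972-47353271 (plus strand, the first of 2 listed starts), Tgfbi at chr13:56609336-56609635 (plus strand) and Smad6 at chr9:64022010-64022309 (minus strand). Capitals mark the GC box GGGCGG or CCGCCC, the TATA box TATAAA or TTTATA, the receptor core motif AGAACA or TGTTCT, and the SMAD palindrome GTCTAGAC.
Tgfb1: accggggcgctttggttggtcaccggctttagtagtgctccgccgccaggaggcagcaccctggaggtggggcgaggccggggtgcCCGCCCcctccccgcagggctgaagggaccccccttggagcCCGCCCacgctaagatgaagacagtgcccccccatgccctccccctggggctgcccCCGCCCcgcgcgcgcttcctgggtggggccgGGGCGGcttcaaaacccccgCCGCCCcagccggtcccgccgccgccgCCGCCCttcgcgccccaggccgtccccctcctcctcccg
Tgfb2: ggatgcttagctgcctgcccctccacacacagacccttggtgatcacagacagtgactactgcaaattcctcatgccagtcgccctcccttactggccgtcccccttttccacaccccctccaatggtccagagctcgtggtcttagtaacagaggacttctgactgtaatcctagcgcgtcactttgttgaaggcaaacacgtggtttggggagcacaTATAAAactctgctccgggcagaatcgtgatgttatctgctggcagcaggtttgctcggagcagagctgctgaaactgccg
Tgfbr1: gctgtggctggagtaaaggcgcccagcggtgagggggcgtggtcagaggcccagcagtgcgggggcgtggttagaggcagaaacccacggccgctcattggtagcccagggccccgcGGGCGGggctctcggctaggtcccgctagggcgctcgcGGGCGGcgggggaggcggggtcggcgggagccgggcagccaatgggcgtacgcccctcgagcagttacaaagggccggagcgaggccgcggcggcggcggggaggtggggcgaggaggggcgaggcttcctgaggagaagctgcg
Tgfbi: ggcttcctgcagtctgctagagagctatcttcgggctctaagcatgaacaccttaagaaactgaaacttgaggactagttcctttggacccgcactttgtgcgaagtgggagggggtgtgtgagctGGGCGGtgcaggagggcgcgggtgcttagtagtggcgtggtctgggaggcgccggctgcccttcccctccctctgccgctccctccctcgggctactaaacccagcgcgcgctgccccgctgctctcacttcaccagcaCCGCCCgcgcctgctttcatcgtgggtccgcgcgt
Smad6: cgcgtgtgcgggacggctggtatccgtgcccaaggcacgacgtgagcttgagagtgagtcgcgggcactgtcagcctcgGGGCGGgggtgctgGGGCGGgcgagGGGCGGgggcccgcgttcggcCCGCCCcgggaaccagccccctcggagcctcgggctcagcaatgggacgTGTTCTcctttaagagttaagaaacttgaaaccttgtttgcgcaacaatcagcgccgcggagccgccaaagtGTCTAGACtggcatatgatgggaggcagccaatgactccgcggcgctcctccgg

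The window of Tgfb1 was 77.0% G or C and held 6 GC boxes and no TATA box. That of Tgfb2 was 54.3% G or C, with no GC box and a TATA box whose first base lay at position −31 from the start site. A TATA box was in 13.6% and a GC box in 35.7% of all 32851 mouse promoter windows, on either strand. Among the members that rose, the window of Smad6 held the SMAD palindrome across the start site, from position −4, and the receptor core motif at −76. The palindrome was in 0.213% and the core motif in 19.0% of all windows. The window of Tgfbi and both windows of Tgfbr1 held neither. The windows printed for Tgfbr1 and Tgfbi each held 2 GC boxes. The full palindromic receptor site, in which the core motif and its reverse complement stand 3 bases apart, was in none of the members' windows and in 0.00913% of all windows. These matches describe letters only.

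Among the 10 members, 7 had a test in the authors' deposited table. Tgfbr1, Tgfbi and Smad6 were called higher in LPS+Dex, Lrrc32 was called lower, and Tgfb1, Tgfbr2 and Smad7 were not called. Of all 11755 tested genes, 17.7% were called higher, 25.2% lower and 42.9% in either direction. With a change of at least 1.5-fold, 5.03% of tested genes were higher and 5.5% lower, and the same 4 members pass that rule. The members were chosen by these same FPKM values and fold changes, so their values are a description and nothing is read from their count. Tgfb2, Tgfb3 and Smad3 were marked as too low for a test, a class in which no gene exceeded 0.110 FPKM.

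**Figure D1:**
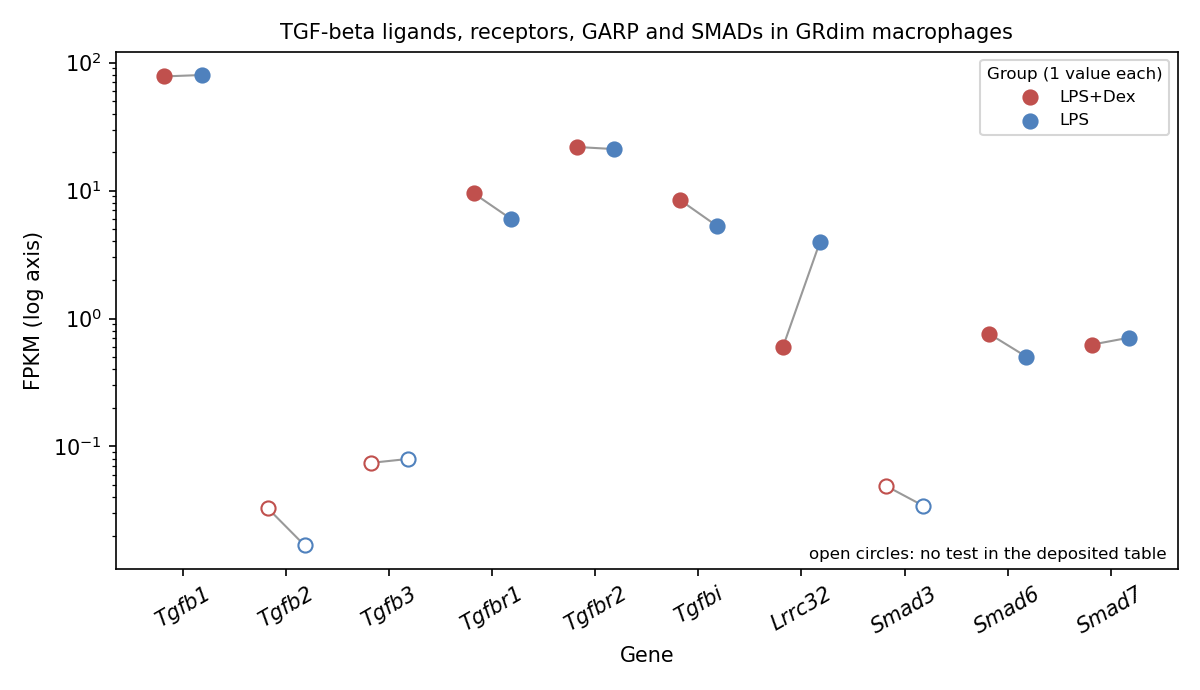
FPKM of each member (log axis) in LPS+Dex (red, left) and LPS (blue, right), 1 deposited value per group, with open circles for genes without a test. Lrrc32 stands at 0.598 FPKM in LPS+Dex and 3.98 FPKM in LPS, and Tgfb1 at 78.1 FPKM in LPS+Dex and 80.0 FPKM in LPS.

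Of the ligand genes, Tgfb1 was by far the most abundant and hardly differed between the groups. It stood at 78.1 FPKM in LPS+Dex and 80.0 FPKM in LPS, above the level of 91.9% of tested genes. Its log2 fold change was −0.036, with an implied SE of 0.048 and a 95% interval of −0.13 to 0.058 (q = 0.588 in the authors' deposited table). Tgfb3 stood at 0.0744 FPKM in LPS+Dex and 0.0798 FPKM in LPS. Tgfb2 was lower still, at 0.0331 FPKM in LPS+Dex and 0.0169 FPKM in LPS. The implied SE of its log2 fold change of 0.97 was 0.66, so the order of its groups is within the error. By FPKM, a value per transcript length, Tgfb1 made up 99.9% of the 3 ligands in each group.

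Lrrc32, whose product GARP docks latent TGF-beta on regulatory T cells and platelets, showed the largest change of the members. It fell to 0.598 FPKM in LPS+Dex, against 3.98 FPKM in LPS, a level 6.65-fold higher in LPS. The log2 fold change was −2.73 with an implied SE of 0.11, close to the median implied SE of 0.098 among genes of similar level. The 95% interval was −2.95 to −2.52, and the authors' deposited table lists its q at 0. Among the 9487 tested genes with at least 1 FPKM in a group and both values above 0, it was number 5 from the lowest. With a pseudocount of 1, which shrinks the changes of genes at low levels, its log2 fold change was −1.64. The gene lies on chromosome 7 from 105642731 to 105650340 (mm9, as the table lists it).

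Lrrc33, which encodes the related docking protein of macrophages and microglia, had no called change. It stood at 20.6 FPKM in LPS+Dex and 21.4 FPKM in LPS (log2 −0.054, implied SE 0.049, q = 0.401 in the authors' deposited table). Lrrc33 was thus 34.5 times as abundant as Lrrc32 in LPS+Dex and 5.38 times in LPS, on the FPKM scale. It was singled out after its values were seen.

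Markers of other cell types were examined beside the Lrrc32 values, since in bulk RNA fewer cells of a type and less RNA per cell cannot be told apart. For T and regulatory T cells the 6 markers summed to 0.462 FPKM in LPS+Dex and 0.866 FPKM in LPS, and both tested markers, Cd4 and Il2ra, fell. The T cell markers Cd3e and Cd3d had no test. They stood at 0.00535 and 0.00284 FPKM in LPS+Dex and were listed at 0 in LPS. Foxp3, which defines regulatory T cells, was near 0 in both groups, at 0.0111 FPKM in LPS+Dex and 0.0117 FPKM in LPS, and Ctla4 was listed at 0 in both. The 6 markers of megakaryocytes and platelets summed to 72.4 FPKM in LPS+Dex and 64.7 FPKM in LPS, with 1 of 2 tested markers, Pf4, called higher. Pf4 alone gave 72.2 FPKM in LPS+Dex and 64.5 FPKM in LPS, and Gp9 was near 0 in LPS+Dex (0.00518 FPKM) and in LPS (0.00515 FPKM). The 5 endothelial markers summed to 12.9 FPKM in LPS+Dex and 25.9 FPKM in LPS, and 1 of 3 tested fell, Kdr, at 11.8 FPKM in LPS+Dex and 24.8 FPKM in LPS. Cdh5, which defines endothelium, was at 0.154 FPKM in LPS+Dex and 0.186 FPKM in LPS, and Cldn5 was listed at 0 in both. The 5 dendritic cell markers summed to 0.764 FPKM in LPS+Dex and 3.25 FPKM in LPS, and both tested ones, Ccr7 and Xcr1, fell. Ccr7 alone gave 0.589 FPKM in LPS+Dex and 2.63 FPKM in LPS, most of each sum, and Cd209a was listed at 0 in both. Flt3 (0.0212 FPKM in LPS+Dex and 0.0177 FPKM in LPS) and Zbtb46 (0.0405 FPKM in LPS+Dex and 0.0672 FPKM in LPS) were too low for a test. The part of T cell, endothelial and dendritic cell markers in the Lrrc32 result was not tested. Beside the marker calls, 17.7% of all tested genes were called higher and 25.2% lower. The 5 fibroblast markers summed to 1.98 FPKM in LPS+Dex and 1.94 FPKM in LPS, and the 3 B cell markers to 0.0182 FPKM in LPS+Dex and 0.00926 FPKM in LPS.

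Within 200 kb of Lrrc32 the table lists 4 other genes, of which 3 had a test. Tsku, a gene 133 kb away that encodes the secreted leucine-rich repeat protein tsukushi, fell as well, to 0.272 FPKM in LPS+Dex, against 0.814 FPKM in LPS (log2 −1.58, implied SE 0.26, q = 9.73e-09 in the authors' deposited table). Gucy2d, which lies between them, was listed at 0 in both groups. Acer3, a ceramidase gene, stood at 21.8 FPKM in LPS+Dex and 20.2 FPKM in LPS and was not called (log2 0.11, q = 0.0535). On the other side, 2210018M11Rik stood at 1.99 FPKM in LPS+Dex and 1.94 FPKM in LPS and was not called. Over all tested genes 25.2% were called lower.

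**Figure D2:**
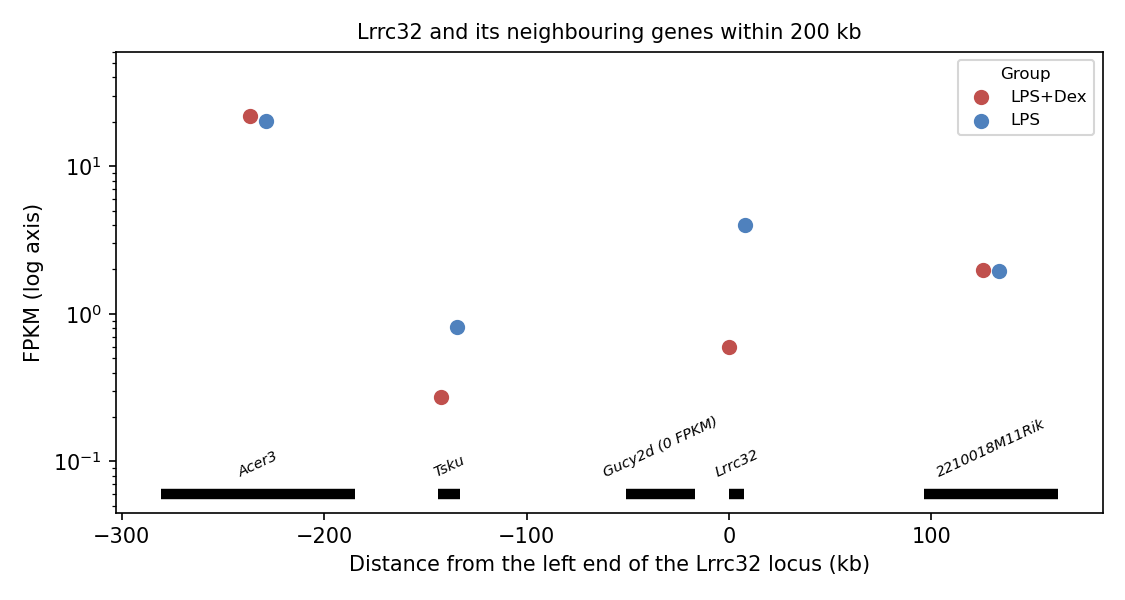
FPKM (log axis) of Lrrc32 and the genes within 200 kb in LPS+Dex (red) and LPS (blue), placed by distance in kb from the left end of the Lrrc32 locus, with black bars for the extent of each gene. Lrrc32 and Tsku are lower in LPS+Dex, while Acer3 and 2210018M11Rik differ little.

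The receptor genes differed in their calls. Tgfbr1, the type I receptor gene, rose to 9.52 FPKM in LPS+Dex, against 6.02 FPKM in LPS. This is a 1.58-fold higher level in LPS+Dex (log2 0.66, implied SE 0.053, 95% interval 0.56 to 0.76), and it was number 323 from the highest of the 9487 genes ranked. Tgfbr2, the type II receptor gene, stood at 21.9 FPKM in LPS+Dex and 21.1 FPKM in LPS (log2 0.054, implied SE 0.056, q = 0.472 in the authors' deposited table). Its 95% interval was −0.056 to 0.16, and it was not called. The difference between the changes of Tgfbr1 and Tgfbr2 was not tested. Tgfbr2 remained the more abundant, 2.3 times Tgfbr1 in LPS+Dex and 3.5 times in LPS by FPKM. Tgfbr1 lies on chromosome 4 (mm9, 47366176 to 47427796) and Tgfbr2 on chromosome 9 (115996812 to 116084481).

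The 3 SMAD members were all scarce. Smad3, which carries the signal to the nucleus, stood at 0.0492 FPKM in LPS+Dex and 0.0344 FPKM in LPS and had no test. Its close relative Smad2, which does the same, was 84.3 times as abundant in LPS+Dex and 110.9 times in LPS. Both ratios are rough, and nothing is read from their difference, since the Smad3 level was too low for a test. The implied SE of the log2 fold change of Smad3 was 0.47. Smad2 stood at 4.14 FPKM in LPS+Dex and 3.82 FPKM in LPS and was not called (log2 0.12, q = 0.0694 in the authors' deposited table). Centring on the median made Smad2 higher at log2 0.14 (q = 0.0240), while with the level trend removed it was not called (log2 0.087, q = 0.209).

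Smad6, an inhibitory SMAD known mainly for blocking bone morphogenetic protein (BMP) signals, rose to 0.760 FPKM in LPS+Dex, against 0.504 FPKM in LPS. The log2 fold change was 0.59 with an implied SE of 0.16 (q = 0.000889 in the authors' deposited table), and 0.23 on the log2(FPKM + 1) scale. Its 95% interval was 0.28 to 0.91, and at 1.51-fold Smad6 passed the 1.5-fold rule only narrowly. With the level trend removed Smad6 was still called higher, at a smaller log2 of 0.47 (q = 0.0115). Smad7, the inhibitory SMAD that targets the TGF-beta receptors, stood at 0.626 FPKM in LPS+Dex and 0.709 FPKM in LPS and was not called (log2 −0.18, implied SE 0.12, q = 0.250). With the trend of fold change on expression level removed, Smad7 was called lower at log2 −0.31 (q = 0.0366), where 18.4% of tested genes were called higher and 21.2% lower. Smad6 and Smad7 thus changed order, with Smad7 at 0.823 times Smad6 in LPS+Dex and 1.41 times in LPS by FPKM, where the difference within a group was not tested. Neither reached 1 FPKM in a group.

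Tgfbi, which encodes a secreted matrix protein named for its induction by TGF-beta, rose to 8.46 FPKM in LPS+Dex, against 5.29 FPKM in LPS. This is a 1.6-fold higher level (log2 0.68, implied SE 0.064, 95% interval 0.55 to 0.80), number 309 from the highest of the ranked genes. Its fold change was almost that of Tgfbr1. Smad5, which lies 63.7 kb from Tgfbi on chromosome 13 and encodes a transducer of BMP signals, also rose, to 1.43 FPKM in LPS+Dex, against 1.25 FPKM in LPS (log2 0.20, q = 0.0380 in the authors' deposited table). That call was lost with the level trend removed, at log2 0.095 (q = 0.397).

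**Figure D3:**
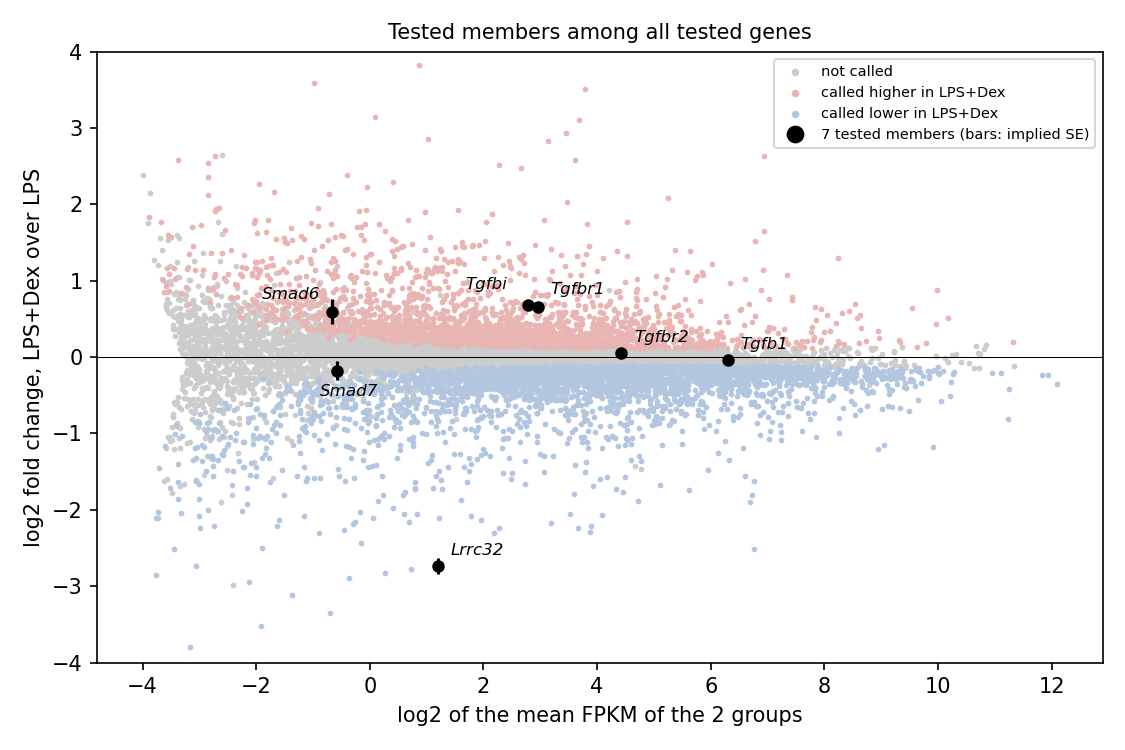
Log2 fold change of LPS+Dex over LPS against the log2 mean FPKM for tested genes, with the 7 tested members in black and bars for the implied SE. Lrrc32 lies at −2.73, Tgfbi and Tgfbr1 lie side by side at 0.68 and 0.66, and 6 tested genes lie outside the plotted range.

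The other genes of the pathway came from 6 lists. Of their 92 genes in the deposited data, 65 had a test, and 13 (20.0%) were called higher, 25 (38.5%) lower and 27 were not called, beside 17.7% higher and 25.2% lower over all tested genes. The median log2 fold change of these 65 was −0.093, against −0.011 over all tested genes. With a change of at least 1.5-fold, 4 of these 65 were higher and 12 lower, beside 5.03% higher and 5.5% lower over all tested genes. The lists were written with earlier results of these data known, so these counts are a description.

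Of 13 tested genes for latency and activation, 4 rose (30.8%), 4 fell (30.8%) and 5 were not called in the authors' deposited table. Beside these, 17.7% of all tested genes were called higher and 25.2% lower. Thbs1, which encodes thrombospondin-1, an activator of latent TGF-beta, rose to 210.5 FPKM in LPS+Dex, against 34.0 FPKM in LPS (log2 2.63, implied SE 0.064). The other rises were small, at log2 0.27 for Itgb5, 0.25 for Itgb8 and 0.16 for Furin, the protease that cleaves the TGF-beta precursor. Mmp9, a matrix protease gene, fell to 0.806 FPKM in LPS+Dex, against 2.68 FPKM in LPS (log2 −1.73, implied SE 0.11). Plau, encoding urokinase, fell to 15.9 FPKM in LPS+Dex, against 33.3 FPKM in LPS. The chains of the integrin that releases TGF-beta, alpha-V and beta-8, went opposite ways. Itgav fell to 9.69 FPKM in LPS+Dex, against 15.0 FPKM in LPS, while Itgb8 rose to 21.6 FPKM in LPS+Dex, against 18.1 FPKM in LPS. Itgb1 was not called, at 155.8 FPKM in LPS+Dex and 166.6 FPKM in LPS.

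**Figure D4:**
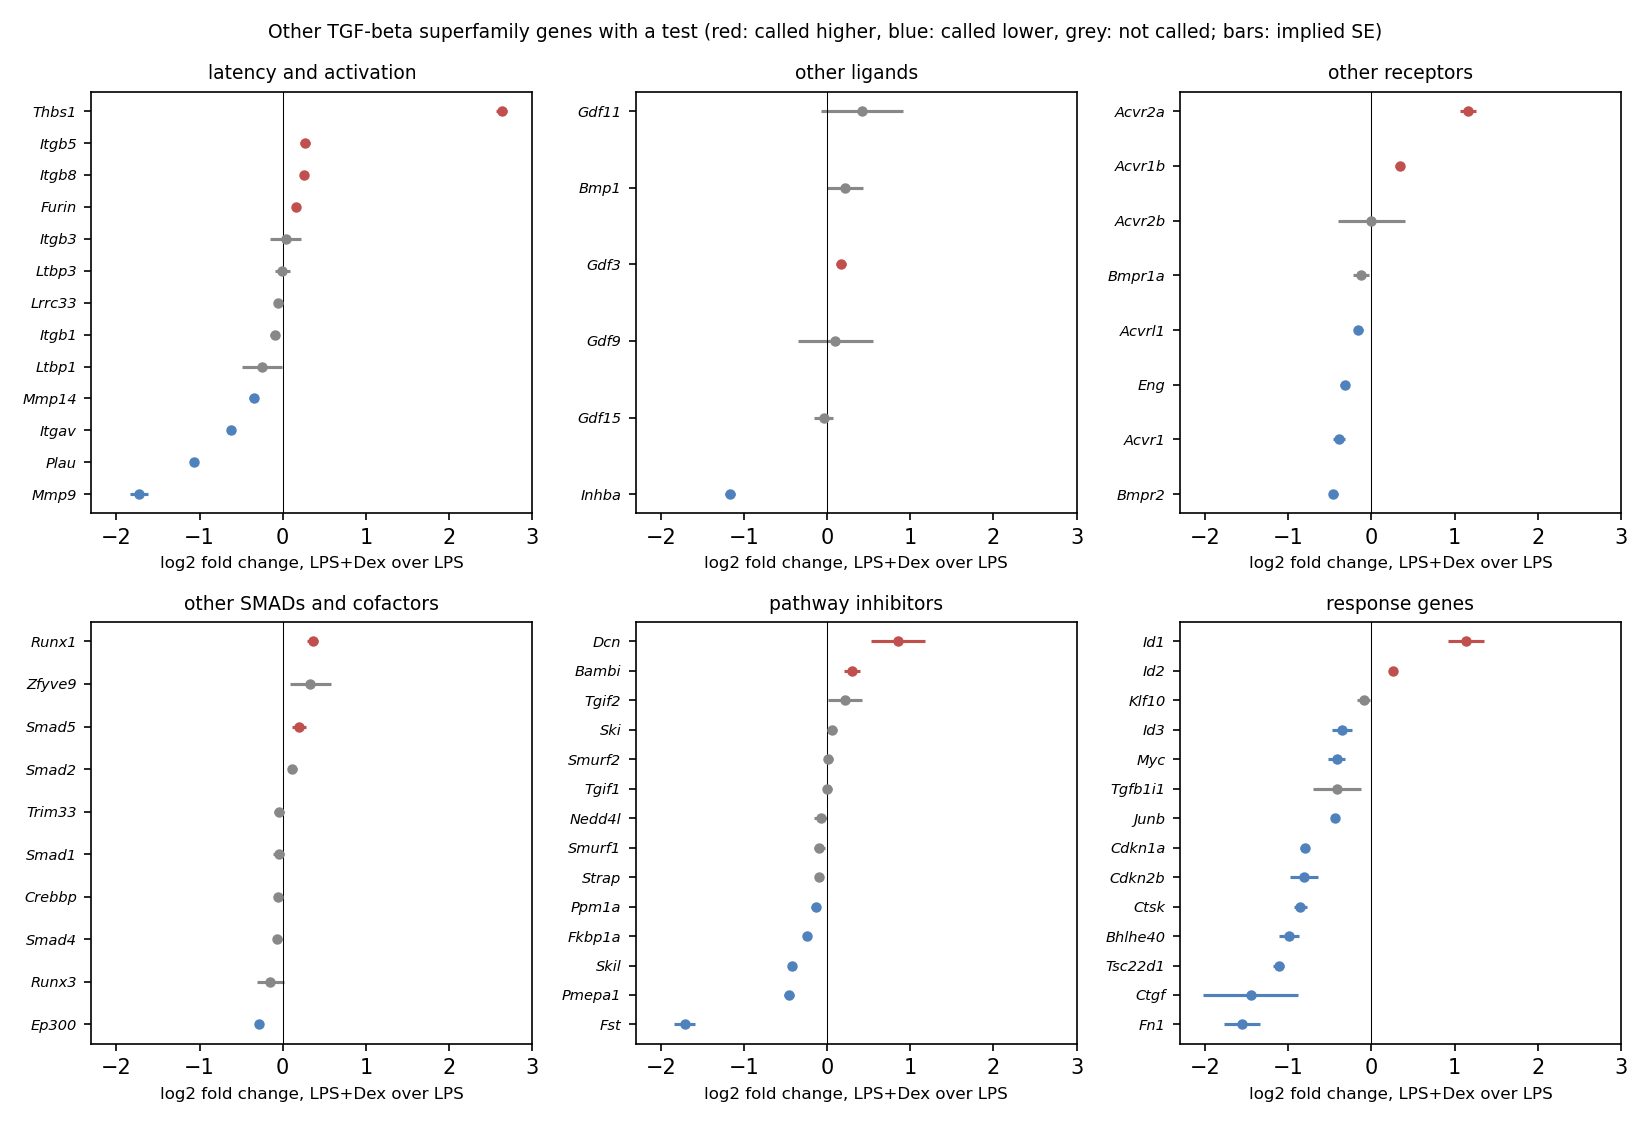
Log2 fold changes of LPS+Dex over LPS for the other pathway genes with a test, by list, with bars for the implied SE and colours for the call. Thbs1 stands at 2.63 among the genes of latency and activation, and 10 of 14 response genes are called lower, beside 25.2% of all tested genes. The response list was written with earlier results known and lost a gene after its values were seen, so its share is a description only.

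Among 6 tested ligands of the wider family 1 rose (16.7%) and 1 fell (16.7%), beside 17.7% higher and 25.2% lower over all tested genes. Inhba, which encodes the activin A subunit, fell to 12.7 FPKM in LPS+Dex, against 28.4 FPKM in LPS (log2 −1.17, implied SE 0.058 from the authors' deposited table). Fst, whose product follistatin binds and blocks activin, fell with it, to 0.808 FPKM in LPS+Dex, against 2.65 FPKM in LPS (log2 −1.71, implied SE 0.13). Genes grouped as activin receptors by their names alone did not all change in the same direction. Acvr2a rose to 3.23 FPKM in LPS+Dex, against 1.44 FPKM in LPS (log2 1.16, implied SE 0.094), and Acvr1b rose by log2 0.34. Acvr1 fell to 8.16 FPKM in LPS+Dex, against 10.7 FPKM in LPS. Acvrl1 fell to 8.69 FPKM in LPS+Dex, against 9.69 FPKM in LPS (log2 −0.16, q = 0.0121). Acvr2b was not called, at 0.169 FPKM in each group. The ligand gene Gdf3 rose to 14.1 FPKM in LPS+Dex, against 12.6 FPKM in LPS, and Gdf15 was not called, at 3.74 FPKM in LPS+Dex and 3.85 FPKM in LPS.

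Of 8 other receptors with a test, 2 rose, 4 fell and 2 were not called. The falls included the BMP receptor gene Bmpr2, at 7.06 FPKM in LPS+Dex and 9.70 FPKM in LPS, and the coreceptor gene Eng (endoglin), at 45.9 FPKM in LPS+Dex and 57.3 FPKM in LPS. Bmpr1a was not called, at 0.939 FPKM in LPS+Dex and 1.02 FPKM in LPS, but was called lower with the level trend removed (log2 −0.22, q = 0.0472). Of 10 other SMADs and cofactors 2 rose, 1 fell and 7 were not called. Runx1, a transcription factor that works with SMADs, rose to 6.72 FPKM in LPS+Dex, against 5.24 FPKM in LPS. The coactivator gene Ep300 fell to 10.3 FPKM in LPS+Dex, against 12.6 FPKM in LPS. Smad4, the shared partner of the signalling SMADs, was not called, at 12.8 FPKM in LPS+Dex and 13.4 FPKM in LPS.

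Of 14 tested inhibitors of the pathway 2 rose (14.3%), 5 fell (35.7%) and 7 were not called in the authors' deposited table. Beside these, 17.7% of all tested genes were called higher and 25.2% lower. The pseudoreceptor gene Bambi rose to 1.05 FPKM in LPS+Dex, against 0.856 FPKM in LPS, and Dcn, encoding the matrix proteoglycan decorin, to 0.703 FPKM in LPS+Dex, against 0.389 FPKM in LPS. With the level trend removed, no inhibitor was called higher (q = 0.105 for Bambi and 0.0580 for Dcn). In that setting 4 were called lower, Ppm1a being lost (q = 0.112). It called 18.4% of all tested genes higher and 21.2% lower, and nothing is read from these counts. The SMAD corepressor gene Skil fell to 28.3 FPKM in LPS+Dex, against 37.9 FPKM in LPS, and the feedback inhibitor gene Pmepa1 to 4.22 FPKM in LPS+Dex, against 5.82 FPKM in LPS. Tgif1 was not called, at 52.3 FPKM in LPS+Dex and 52.2 FPKM in LPS.

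The 14 tested response genes had the lowest median of the 6 lists, a log2 fold change of −0.62, with 2 called higher (14.3%), 10 lower (71.4%) and 2 not called in the authors' deposited table, beside 17.7% higher and 25.2% lower over all tested genes. A gene was left out of this list after its values were seen, and the list was written with earlier results known. Many other signals also act on these genes, and the list does not separate genes that TGF-beta raises from genes that it lowers. With at least 1 FPKM in a group required, 2 were higher and 8 lower, as Ctgf and Fn1 were left out. That rule called 15.1% of all tested genes higher and 23.3% lower. Tsc22d1 fell to 8.45 FPKM in LPS+Dex, against 18.3 FPKM in LPS (log2 −1.11, implied SE 0.066). Cdkn1a, encoding the cell cycle inhibitor p21, fell to 222 FPKM in LPS+Dex, against 387 FPKM in LPS. Id1 rose to 2.02 FPKM in LPS+Dex, against 0.919 FPKM in LPS (log2 1.14, implied SE 0.22), and Id2 by log2 0.26. Klf10 was not called, at 2.63 FPKM in LPS+Dex and 2.80 FPKM in LPS. Tgfbi thus went opposite to most of these genes, without a test of that difference.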

How the data were processed

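The study measured RNA by stranded paired-end sequencing in 6 samples, 3 in LPS+Dex and 3 in LPS, grouped by their titles. The authors deposited FPKM, 1 value for each gene in each group, with a log2 fold change, a test statistic (a score opposite in sign to the fold change), a p-value and a q-value. How replicates were pooled and libraries scaled was not given in the sources that were used. The submitters' processing notes name CASAVA, TopHat 1.4.1, Cufflinks 2.0.2 and build mm9, without their roles. FPKM depends on the assumed transcript length and on the library total, and depth is unknown.

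The log2 fold change was recomputed from FPKM and equalled the deposited log2 value within 1.23e-05 for tested genes. The implied SE is the fold change divided by the deposited statistic. For 2 alternatives, fold changes were centred (median −0.025) or freed of a running median over 501 genes ordered by level, and q was recomputed for 11745 genes. The trend removal was tried on simulated data with a smaller share of changed genes and with SEs unrelated to level. That trial therefore does not show how well the recomputed q works on these data. Python 3.11.15, pandas 2.3.3 and scipy 1.17.1 were used. The members and lists were chosen with earlier results of these data known. Named genes were the members, and in each list the largest called rise and fall with at least 1 FPKM in a group and the most abundant gene not called. Other genes were named after their values were seen. A response gene was left out of its list after the values were seen, and is not reported here.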

Additional observations from a re-analysis of the deposited data

How the results depend on the processing

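No paired analysis was possible because the table holds no values per sample, and for the same reason no replicate could be left out. The 3 members called higher and the 1 called lower kept their calls at q under 0.01 or 0.1, at 1.5-fold or more, and after centring. These rules and the next called 13.7% to 20.4% of tested genes higher and 21.2% to 27.8% lower, except 1.5-fold, given above. With at least 1 FPKM required 2 were higher, as Smad6 was left out. With the level trend removed 2 were lower, Smad7 joining Lrrc32. For the other pathway genes, 13 higher and 25 lower became 4 and 12 at 1.5-fold or more. No called member or pathway gene changed sign under the pseudocounts, the centring or the trend removal. Pseudocounts of 1 and 0.1 gave log2 −1.64 and −2.55 for Lrrc32. Tgfb1 was 0.093 with the trend removed and not called (q = 0.114).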

Other observations

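Among 11729 other tested genes with a single symbol, the 3 nearest to Lrrc32 by log2 FPKM in the 2 groups were Arl4c, Il21r and Ccr7, at distances of 0.52, 0.57 and 0.60. Arl4c, a small GTPase gene, stood at 0.686 FPKM in LPS+Dex and 2.86 FPKM in LPS. Il21r, the interleukin-21 receptor gene, stood at 0.883 FPKM in LPS+Dex and 3.79 FPKM in LPS, and the chemokine receptor gene Ccr7 at 0.589 FPKM in LPS+Dex and 2.63 FPKM in LPS. With 2 values per gene, this likeness says only that both levels are close.

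Tgfbr3, the gene of the coreceptor betaglycan, stood at 0.0720 FPKM in LPS+Dex and 0.0247 FPKM in LPS. The authors' deposited table gives it a p of 0.000702 and marks it as too low for a test, so it was not counted. Within 200 kb of Tgfbr1, 2 of 3 tested neighbours were called higher, Alg2 (4.16 FPKM in LPS+Dex and 3.29 FPKM in LPS) and Col15a1 (0.241 FPKM in LPS+Dex and 0.168 FPKM in LPS). Of 6 tested neighbours of Smad6, Zwilch was called higher and Rpl4 lower. Over all tested genes 17.7% were called higher and 25.2% lower, and with so few neighbours nothing is read from these counts.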
